A study of Homo sapiens with 24 samples.

Results

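The RIG-I-like receptors DDX58 (RIG-I), IFIH1 (MDA5) and DHX58 (LGP2) were examined in SW-13 cells, a human adrenocortical carcinoma line that lacks BRG1, the ATPase of the SWI/SNF chromatin remodeler. The 3 genes were taken by probe ID from an Illumina HT-12 expression array, as ILMN_1797001 for DDX58, ILMN_1781373 for IFIH1 and ILMN_1678422 for DHX58, which makes 3 of 47231 probes. Cells were transfected in repeated cycles with 50 nM siCtrl or siSUZ12, alone or together with 75 nM siBRM, and were then kept unstimulated or given IFNγ over 6 hours. This made 8 groups with 3 arrays each: siCtrl, siSUZ12, siCtrl + siBRM and siSUZ12 + siBRM cells, each without and with IFNγ. SUZ12 is a core subunit of PRC2, the complex that methylates histone H3 at lysine 27, and BRM is the ATPase that can take the place of BRG1. Cells with siBRM received 125 nM siRNA in total, and no group had that total without siBRM, so the loss of BRM and the larger siRNA dose cannot be told apart. All groups are one cell line, and the methods describe the 3 arrays of a group as biological replicates.

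RIG-I-like receptors are cytoplasmic helicases that bind viral RNA. RIG-I and MDA5 carry caspase recruitment domains through which they signal to the mitochondrial adaptor MAVS, and this starts the production of type I interferon. RIG-I favors short RNA with a 5′ triphosphate and MDA5 long double-stranded RNA. LGP2 has the helicase but no caspase recruitment domain, and it modulates the other two. The genes are themselves interferon-stimulated genes (ISGs), whose promoters often hold sites for interferon regulatory factors (IRFs), and the series asked how SUZ12 knockdown alters the response of such genes to IFNγ.

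The human genes lie on chromosomes 9 (DDX58, now RIGI), 2 (IFIH1) and 17 (DHX58). RefSeq promoters of the GRCh38.p14 build were at hand for DDX58 and IFIH1, and the 250 bases before each start site are shown because both genes moved together with IFNγ. Capitals mark every match, on either strand, to the motif of IRF-bound interferon response elements GAAANNGAAA or to the shorter IRF core AANNGAAA, which the longer motif contains. The DDX58 sequence is that of the minus strand at chr9:32526197-32526446, and the IFIH1 sequence that of the minus strand at chr2:162318685-162318934.
DDX58: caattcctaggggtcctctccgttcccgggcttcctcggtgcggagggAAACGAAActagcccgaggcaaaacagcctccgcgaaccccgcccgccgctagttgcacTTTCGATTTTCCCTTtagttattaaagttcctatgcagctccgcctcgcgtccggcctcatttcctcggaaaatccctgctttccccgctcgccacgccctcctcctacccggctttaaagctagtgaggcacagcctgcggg
IFIH1: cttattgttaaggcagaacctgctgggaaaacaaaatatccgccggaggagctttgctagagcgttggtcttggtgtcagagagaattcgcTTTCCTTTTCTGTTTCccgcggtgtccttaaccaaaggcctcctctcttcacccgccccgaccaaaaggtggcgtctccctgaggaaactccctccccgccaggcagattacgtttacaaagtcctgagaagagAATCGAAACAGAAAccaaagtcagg
In the window from 250 bases before to 50 bases after the start, IFIH1 had GAAANNGAAA at bases -159 to -150 and -153 to -144 on the opposite strand and at -21 to -12 on the gene's strand. DDX58 had no match to this motif but had the IRF core at bases -202 to -195, -143 to -136 and -136 to -129. Among 35116 promoters of 300 bases, 3.57% held GAAANNGAAA and 22.8% held AANNGAAA. The DDX58 window had 27 CpG dinucleotides and the IFIH1 window 12, around a median of 14 over all promoters. A match is a description of the letters and not of a bound site.

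Across the 24 arrays the mean deposited intensity ran from 532 to 635, and from 15223 to 16799 probes had a detection p-value below 0.01. The detection p-value compares a probe with the negative controls of its array. Arrays were scaled to a common mean, and all intensities below are on that normalized scale. A probe with a detection p-value of 0.5, which is at background, had a normalized intensity between 88.7 and 102. The deposited values thus still held background signal, and none was subtracted here, so fold changes of dim probes are understated. Intensities of different probes are not levels per transcript and are compared here only as changes. The probes of SUZ12 and BRM are not named in the table, and their knockdown was not analysed here.

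DDX58 mRNA, which encodes RIG-I, was low in untreated cells and rose with IFNγ in every siRNA background. Its normalized intensity in the untreated arrays was 129, 158 and 121 in siCtrl, 192, 163 and 148 in siSUZ12, 151, 158 and 138 in siCtrl + siBRM, and 182, 179 and 196 in siSUZ12 + siBRM cells. With IFNγ the arrays read 369, 401 and 332 in siCtrl, 762, 765 and 725 in siSUZ12, 648, 710.0 and 651 in siCtrl + siBRM, and 1065, 1167 and 1233 in siSUZ12 + siBRM cells. Every IFNγ array was above every untreated array, and the siSUZ12 + siBRM arrays were the highest. The group means were 136 ± 19.3 (SD, n = 3) in untreated siCtrl cells and 1155 ± 84.4 (SD, n = 3) in siSUZ12 + siBRM cells with IFNγ. In the order of the means, from untreated siCtrl through siCtrl + siBRM and siSUZ12 to siSUZ12 + siBRM, the untreated neighbors did not differ at an adjusted p-value below 0.05 (0.660, 0.383 and 0.620 in limma). With IFNγ the order was siCtrl, siCtrl + siBRM, siSUZ12 and siSUZ12 + siBRM, and only the step from siCtrl + siBRM to siSUZ12 missed that threshold among the IFNγ groups (log2 difference 0.17, 95% interval -0.03 to 0.36, adjusted p = 0.393, limma). Of the 24 arrays, 22 detected DDX58, and both that did not were untreated siCtrl arrays.

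IFIH1 mRNA, which encodes MDA5, was higher after siSUZ12 both without and with IFNγ. Untreated arrays read 125, 124 and 107 in siCtrl, 208, 223 and 205 in siSUZ12, 132, 143 and 164 in siCtrl + siBRM, and 237, 229.8 and 237 in siSUZ12 + siBRM cells. With IFNγ they read 363, 422 and 391 in siCtrl, 1331, 1259.5 and 1307 in siSUZ12, 527, 589 and 577 in siCtrl + siBRM, and 1136, 1338 and 1243 in siSUZ12 + siBRM cells. The siSUZ12 arrays lay above the siCtrl arrays in all 4 settings, without overlap. Here and elsewhere, the share of all probes whose arrays did not overlap was not counted. Full separation of 3 arrays from 3 has an exact permutation p-value of 0.1, so it is a description only. No untreated siCtrl array detected IFIH1, and all 21 other arrays did. The mean was lowest in untreated siCtrl cells, at 119 ± 10.5 (SD, n = 3), and highest in siSUZ12 cells with IFNγ, at 1299 ± 36.4 (SD, n = 3). Steps between neighbors in the order of means were past an adjusted p-value of 0.05 except from untreated siSUZ12 to untreated siSUZ12 + siBRM cells (log2 difference 0.15, 95% interval -0.03 to 0.32, adjusted p = 0.588, limma) and between siSUZ12 + siBRM and siSUZ12 cells with IFNγ (0.07, -0.11 to 0.25, adjusted p = 0.833, limma).

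DHX58 mRNA, which encodes LGP2, was at background without IFNγ and only a little above it with IFNγ. Untreated arrays read 78.7, 85.7 and 81.8 in siCtrl, 102, 85.5 and 88.9 in siSUZ12, 84.2, 85.5 and 95.6 in siCtrl + siBRM, and 87.1, 92.9 and 108 in siSUZ12 + siBRM cells. With IFNγ they read 119.7, 113 and 117 in siCtrl, 140.2, 145 and 158 in siSUZ12, 137, 140.3 and 131 in siCtrl + siBRM, and 136, 136 and 142 in siSUZ12 + siBRM cells. All IFNγ arrays were above all untreated arrays. No untreated array detected DHX58. With IFNγ it was detected by no siCtrl array, all 3 siSUZ12 arrays, 2 of 3 siCtrl + siBRM arrays and 2 of 3 siSUZ12 + siBRM arrays. Among neighboring groups, only the step from untreated siSUZ12 + siBRM to siCtrl with IFNγ passed the threshold (adjusted p = 0.0140, limma).

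**Figure D1:**
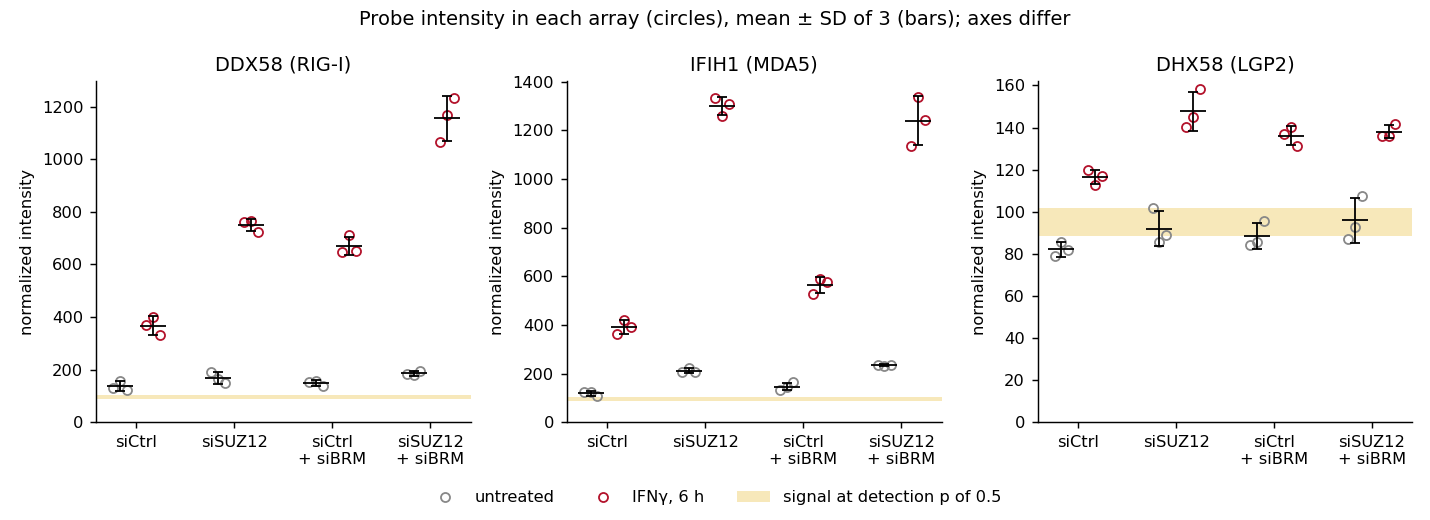
Normalized probe intensity (linear axes that start at 0 and differ between panels) of DDX58, IFIH1 and DHX58 in the 4 siRNA backgrounds, untreated (grey) and with IFNγ (red); circles are arrays, bars are mean ± SD of 3 arrays, and the yellow band spans the signal at a detection p-value of 0.5. All IFNγ arrays lie above all untreated arrays of the same gene, and untreated DHX58 lies in or near the band.

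The first comparison asked whether IFNγ raised the sensors in each siRNA background. All 3 rose in all 4 backgrounds, with a call made here and throughout where limma gave a p-value under 0.05 after Benjamini-Hochberg adjustment over the 47231 probes. Over all probes the share that rose was 0.593% in siCtrl, 1.2% in siSUZ12, 0.987% in siCtrl + siBRM and 1.44% in siSUZ12 + siBRM cells. DDX58 rose 2.71-fold in siCtrl cells (log2 change 1.44, SE 0.10, adjusted p = 4.55e-13), 4.50-fold in siSUZ12, 4.49-fold in siCtrl + siBRM and 6.21-fold in siSUZ12 + siBRM cells. IFIH1 rose 3.31-fold in siCtrl cells (log2 change 1.73, SE 0.09, adjusted p = 9.27e-17), 6.13-fold in siSUZ12, 3.87-fold in siCtrl + siBRM and 5.27-fold in siSUZ12 + siBRM cells. Both genes therefore passed 2-fold in every background, as did 0.123%, 0.275%, 0.159% and 0.296% of all probes in the same order. By the size of the log2 change, DDX58 ranked between 18 and 33 of 47231 probes and IFIH1 between 21 and 29. DHX58 rose by 1.42-fold in siCtrl cells (log2 change 0.51, SE 0.08, adjusted p = 2.42e-04) and 1.61-fold in siSUZ12 cells (adjusted p = 4.07e-07), over an untreated signal at background. The untreated siCtrl arrays detected IFIH1 in 0 of 3 and DDX58 in 1 of 3, so the siCtrl folds of these genes are understated. The limma function neqc corrects for a background estimated from the detection p-values, adds an offset, here 16, and quantile normalizes the arrays. With neqc the log2 change of IFIH1 was 2.93 in siCtrl, 3.25 in siSUZ12, 2.83 in siCtrl + siBRM and 2.94 in siSUZ12 + siBRM cells, a narrower range than without it. That of DDX58 was 2.34, 3.07, 3.01 and 3.39 in the same order. The DHX58 log2 change was 0.72 in siCtrl, 1.33 in siSUZ12, 1.15 in siCtrl + siBRM and 1.02 in siSUZ12 + siBRM cells, with adjusted p-values of 0.00137 or less.

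In untreated cells, siSUZ12 raised IFIH1 and, less firmly, DDX58. IFIH1 was 1.79-fold higher after siSUZ12 (log2 difference 0.84, SE 0.09, adjusted p = 2.69e-09, limma), and 1.61-fold higher in siBRM cells (0.68, SE 0.09, adjusted p = 5.64e-07). Since no untreated siCtrl array detected IFIH1, the fold against them is understated, and with neqc the log2 differences were 1.62 and 1.12. DDX58 was 1.23-fold higher (log2 difference 0.30, SE 0.10, adjusted p = 0.0311) and 1.25-fold higher in siBRM cells (0.32, SE 0.10, adjusted p = 0.0354). Probes that were higher after siSUZ12 made up 8.16% of all probes in untreated cells and 5.04% in untreated siBRM cells. The siCtrl and siSUZ12 arrays of DDX58 overlapped in untreated cells without siBRM and did not overlap with it. The DDX58 call was lost, with an adjusted p-value of 0.134, 0.228, 0.278 or 0.0566, when siCtrl replicate 1 or 3 or siSUZ12 replicate 1 or 2 was left out, where the log2 difference was 0.27, 0.22, 0.20 or 0.32. In siBRM cells the DDX58 call was lost without siCtrl + siBRM replicate 1 or 3 (0.33 and 0.26, adjusted p = 0.0772 and 0.191) or any siSUZ12 + siBRM replicate (0.33, 0.34 and 0.28, adjusted p = 0.0718, 0.0550 and 0.164), and each replicate number left out ended it too (adjusted p = 0.127, 0.0641 and 0.389). Without replicate number 1 or 3 the DDX58 difference in cells without siBRM was 0.16 or 0.31 (adjusted p = 0.551 or 0.0835). Quantile normalization (adjusted p = 0.0840 and 0.111) and neqc (0.51 and 0.47, adjusted p = 0.0508 and 0.108) ended both calls, and fitting only the groups concerned ended the one without siBRM (adjusted p = 0.0639). For DHX58 the log2 difference was 0.16 (95% interval -0.01 to 0.33, adjusted p = 0.270) without siBRM and 0.11 (-0.06 to 0.28, adjusted p = 0.568) with it, with all of these arrays at background.

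With IFNγ all 3 sensors were higher after siSUZ12, and DDX58 and IFIH1 also in siBRM cells. IFIH1 was 3.32-fold higher in siSUZ12 than in siCtrl cells (log2 difference 1.73, SE 0.09, adjusted p = 2.79e-17, limma), and DDX58 2.05-fold higher (1.04, SE 0.10, adjusted p = 3.21e-10). In siBRM cells, whose controls are other arrays, IFIH1 was 2.19-fold higher (1.13, SE 0.09, adjusted p = 5.04e-12) and DDX58 1.72-fold higher (0.79, SE 0.10, adjusted p = 3.12e-07). A rise after siSUZ12 was called at 7.28% of all probes with IFNγ and at 4.72% in siBRM cells with IFNγ, and a rise of at least 2-fold at 0.481% and 0.292%. IFIH1 passed 2-fold in both and DDX58 only without siBRM. DHX58 was 1.27-fold higher after siSUZ12 with IFNγ (log2 difference 0.34, SE 0.08, adjusted p = 0.00301). This call was lost without replicate number 2 or 3 (0.33 and 0.30, adjusted p = 0.0683 and 0.0652), and neqc gave 0.75 (adjusted p = 8.11e-05). In siBRM cells its difference was 0.02 (95% interval -0.15 to 0.19, adjusted p = 0.959).

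The interaction of siSUZ12 and IFNγ tested whether induction itself was larger after siSUZ12. On the scale without background subtraction it was: DDX58 induction was 1.66 times as large in siSUZ12 as in siCtrl cells (log2 difference in induction 0.73, SE 0.14, adjusted p = 0.00544, limma), and IFIH1 induction 1.85 times as large (0.89, SE 0.12, adjusted p = 4.27e-05). A larger induction was called at 0.182% of all probes. The DDX58 call was lost without replicate number 2 or 3, where the term was 0.66 or 0.68 (adjusted p = 0.376 or 0.147). DHX58 gave 0.18 (95% interval -0.06 to 0.42, adjusted p = 0.945). With background correction by neqc the siSUZ12 difference of IFIH1 was 1.62 in untreated cells and 1.95 with IFNγ on the log2 scale, and the difference in induction fell to 0.33 (SE 0.19, adjusted p = 0.910). For DDX58 neqc gave 0.51 and 1.23, and a difference in induction of 0.72 (SE 0.24, adjusted p = 0.532). The DHX58 difference in induction with neqc was 0.61 (SE 0.17, adjusted p = 0.288, limma). Thus the higher IFIH1 level with IFNγ after siSUZ12 held on both scales, while how much of it was present before IFNγ depended on the scale. In siBRM cells the difference in induction was 0.47 for DDX58 (95% interval 0.19 to 0.75, adjusted p = 0.476) and 0.45 for IFIH1 (0.20 to 0.70, adjusted p = 0.324), and 0.0974% of all probes had a larger one.

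**Figure D2:**
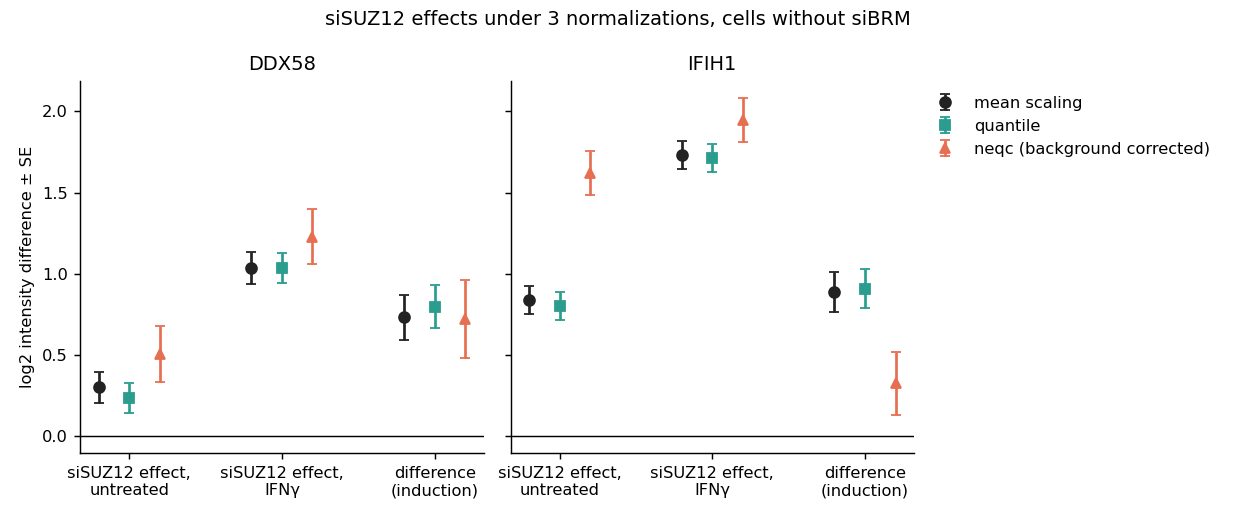
Log2 difference of siSUZ12 from siCtrl cells (y axis, ± SE) untreated, with IFNγ, and the difference between these, for DDX58 and IFIH1 in cells without siBRM; circles are mean-scaled, squares quantile normalized and triangles neqc values. For IFIH1 the untreated difference moves from 0.84 to 1.62 with neqc and the difference in induction from 0.89 to 0.33, while the IFNγ difference moves from 1.73 to 1.95.

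DDX58 was higher with siBRM in cells with IFNγ. In siCtrl cells with IFNγ, DDX58 was 1.83-fold higher with siBRM (log2 difference 0.87, SE 0.10, adjusted p = 1.14e-07, limma), which ranked 14 of 47231 probes. In siSUZ12 cells with IFNγ it was 1.54-fold higher (0.62, SE 0.10, adjusted p = 7.46e-05) and ranked 36. Without IFNγ the DDX58 difference was 0.14 (95% interval -0.06 to 0.34, adjusted p = 0.660) in siCtrl and 0.16 (-0.04 to 0.35, adjusted p = 0.620) in siSUZ12 cells, and the arrays overlapped in both. A rise with siBRM was called at 1.41% of all probes in siCtrl cells with IFNγ and at 1.68% in siSUZ12 cells with IFNγ. The larger siRNA dose of the siBRM cells applies to each of these values.

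IFIH1 was higher with siBRM in siCtrl cells, and no such difference was called in siSUZ12 cells. With IFNγ it was 1.44-fold higher in siCtrl + siBRM than in siCtrl cells (log2 difference 0.53, SE 0.09, adjusted p = 1.30e-04, limma), whereas in siSUZ12 cells the difference was -0.07 (95% interval -0.25 to 0.11, adjusted p = 0.833). In untreated siCtrl cells the difference was 0.30 (SE 0.09, adjusted p = 0.0435), with 1.51% of all probes called as higher. This last call lay close to the threshold, and no untreated siCtrl array detected IFIH1. With neqc the difference was 0.73 (adjusted p = 0.00204, limma). The call without neqc was lost without any of siCtrl replicates 1 to 3 (log2 difference 0.34, 0.34 and 0.23, adjusted p = 0.0524, 0.0616 and 0.302), without siCtrl + siBRM replicate 2 or 3 (0.32 and 0.22, adjusted p = 0.0899 and 0.336), and, at an unchanged 0.30 with adjusted p-values from 0.0502 to 0.0512, without siCtrl replicate 3 or siSUZ12 replicate 3 with IFNγ or replicate 1 of the untreated siSUZ12 or siSUZ12 + siBRM cells. Leaving out replicate number 2 or 3 ended this call too (0.35 and 0.14, adjusted p = 0.180 and 0.765, limma). In untreated siSUZ12 cells the IFIH1 difference was 0.15 (95% interval -0.03 to 0.32, adjusted p = 0.588), with 1.29% of all probes called as higher. For DHX58, siBRM gave a log2 difference of 0.22 in siCtrl cells with IFNγ (95% interval 0.05 to 0.40, adjusted p = 0.187), and of 0.11 untreated (adjusted p = 0.721). The call in siCtrl cells with IFNγ was made by neqc, at 0.55 (adjusted p = 0.00778), and among detected probes alone (adjusted p = 0.0498). The second of these is no separate support. DHX58 passed that filter, detection in at least 3 arrays, only through IFNγ arrays with siSUZ12 or siBRM. In siSUZ12 cells the DHX58 values were 0.06 (adjusted p = 0.905) untreated and -0.10 (adjusted p = 0.728) with IFNγ.

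**Figure D3:**
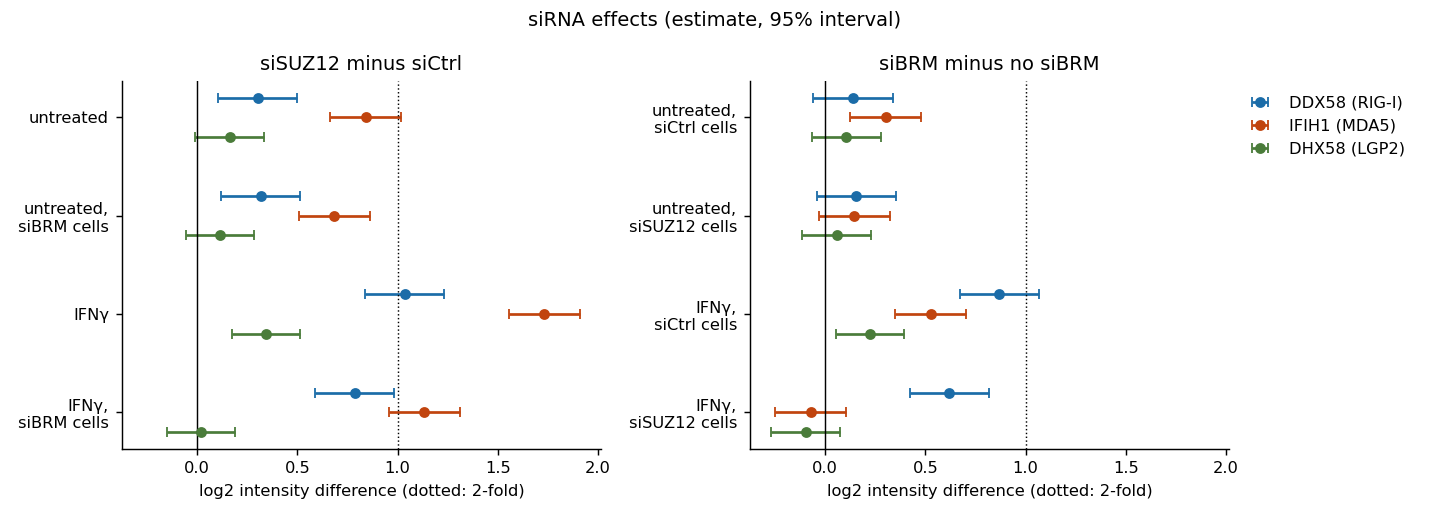
Log2 intensity differences (x axes) of siSUZ12 from siCtrl cells (left) and of cells with from cells without siBRM (right), by state (rows), for DDX58 (blue), IFIH1 (orange) and DHX58 (green); points are limma estimates, lines 95% intervals and the dotted line is 2-fold. With IFNγ, siSUZ12 gives 1.73 for IFIH1 and 1.04 for DDX58, and siBRM gives 0.87 for DDX58 in siCtrl cells and -0.07 for IFIH1 in siSUZ12 cells.

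The siSUZ12 difference of IFIH1 with IFNγ was smaller in siBRM than in other cells, by a log2 of 0.60. The interaction term was -0.60 (SE 0.12, adjusted p = 0.00531, limma), and 0.599% of all probes had a lower siSUZ12 difference with siBRM. The siSUZ12 and siSUZ12 + siBRM groups with IFNγ had means of 1299 ± 36.4 and 1239 ± 101 (SD, n = 3 each), and the siCtrl groups had means of 392 ± 29.6 without and 564 ± 32.9 with siBRM (SD, n = 3 each). The siSUZ12 groups overlapped and the siCtrl groups did not. Without replicate number 1, 2 or 3 the term was -0.51, -0.70 or -0.58 with an adjusted p-value of 0.175, 0.0599 or 0.119. The same term was -0.25 for DDX58 (95% interval -0.53 to 0.03, adjusted p = 0.585) and -0.32 for DHX58 (-0.56 to -0.08, adjusted p = 0.258), with neqc giving -0.72 for IFIH1 (adjusted p = 0.0587) and -0.80 for DHX58 (adjusted p = 0.0121). In untreated cells it was 0.02 for DDX58, -0.16 for IFIH1 and -0.05 for DHX58, with adjusted p-values of 0.991, 0.805 and 0.966.

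Whether siBRM altered induction was tested in the same way. In siCtrl cells DDX58 induction was 1.66 times as large with siBRM (log2 difference 0.73, 95% interval 0.45 to 1.01), which was the largest of the 47231 probes, but its adjusted p-value was 0.172 (limma), and no probe passed 0.05 although 1895 had an unadjusted p-value below 0.05. With the trend and robust settings of eBayes the adjusted p-value was 0.00487, and among the 18229 probes detected in at least 3 arrays it was 0.0473. In siSUZ12 cells the DDX58 value was 0.46 (95% interval 0.18 to 0.74, adjusted p = 0.823), where 0.0106% of all probes had a larger induction. For IFIH1 it was 0.22 (-0.02 to 0.47) in siCtrl and -0.22 (-0.47 to 0.03) in siSUZ12 cells, and for DHX58 0.12 (-0.12 to 0.36) and -0.15 (-0.40 to 0.09), none of them called.

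The values above differed between DDX58 and IFIH1 in their response to the siRNAs. A test of that difference was chosen after seeing these values and uses the same arrays, so it gives the size of the difference against the spread between arrays and is not independent evidence of it. For each array the log2 intensity of DDX58 was taken from that of IFIH1, and labels were permuted within siRNA backgrounds, with 6 arrays against 6 for each siRNA (two-sided exact permutation test, 5 tests, Benjamini-Hochberg adjustment). With siSUZ12, IFIH1 was higher relative to DDX58, by a log2 of 0.45 in untreated cells and 0.52 with IFNγ (exact p = 0.005 each, the smallest that these permutations can give, adjusted p = 0.00833). With siBRM, and so with the larger siRNA dose, the difference in cells with IFNγ changed by -0.52 (exact p = 0.005, adjusted p = 0.00833), with -0.34 in siCtrl and -0.69 in siSUZ12 cells. In untreated cells siBRM gave 0.08 (exact permutation p = 0.48). Averaged over the 4 backgrounds, the induction of IFIH1 by IFNγ differed from that of DDX58 by 0.07 (exact permutation p = 0.430, 12 arrays against 12). This mean joined differences of opposite sign, from -0.24 in siSUZ12 + siBRM to 0.45 in siSUZ12 cells, so it does not show that the induction was alike. With neqc the siSUZ12 values were 0.88 and 0.55 and the siBRM value with IFNγ was -0.56.

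The 3 genes had similar profiles over the arrays. Pearson's r of log2 intensity over the 24 arrays, which share the 8 groups and so mostly show the group means, was 0.964 for DDX58 and IFIH1, 0.946 for DDX58 and DHX58, and 0.942 for IFIH1 and DHX58. Among 18228 probes, the rank of IFIH1 by likeness to DDX58 was 51 and the rank of DDX58 by likeness to IFIH1 was 35. DHX58 ranked 98 by likeness to DDX58 and 87 by likeness to IFIH1. By likeness to DHX58, DDX58 ranked 19 and IFIH1 ranked 30. DHX58 was detected in only 7 of 24 arrays, so its r rests largely on values near background. The probes most like all 3 were ILMN_1690921 (mean r = 0.969) and ILMN_1665291 (mean r = 0.969), which the files do not pair with gene names. The first went from 1590.4 ± 102 (SD, n = 3) in untreated siCtrl cells to 5216 ± 476 with IFNγ, and to 8650 ± 250.2, 8114 ± 251 and 10433 ± 345 with IFNγ in siSUZ12, siCtrl + siBRM and siSUZ12 + siBRM cells. This is the order that DDX58 had with IFNγ. Over the 8 group means the most alike were ILMN_1665291 (mean r = 0.989) and ILMN_2139100 (mean r = 0.987), so ILMN_1690921 was among the first 2 only over single arrays.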

How the data were processed

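RNA of 24 SW-13 samples was hybridized to Illumina Human-HT-12 BeadChips. The authors deposited 1 table with the signal intensity of 47231 probes per array before normalization, and the deposited detection p-value of each intensity. The submitters' processing notes name BeadStudio, and background subtraction is not given in the sources used here, but deposited intensities at a detection p-value of 0.5 were 84.7 to 103, so background signal was still present. No intensity was at or below 0. Groups and replicate numbers were read from the sample titles. To stand for the average normalization of the methods, arrays were brought to a common mean intensity, values under 16 would have been raised to 16 before log2 was taken (the lowest deposited value was 45.4), and all comparisons used these log2 values.

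Group means of all probes and arrays were fitted together in limma 3.58.1 (R 4.3.3), with moderated errors from eBayes, 16 residual degrees of freedom and Benjamini-Hochberg adjustment over the 47231 probes of each contrast. An exact permutation of 3 arrays against 3 can reach a p-value of 0.1 at best and was not used. In simulated data for IFNγ in siCtrl cells, 200 of 47231 probes were changed by a log2 of 1, and 100% of them were called with 6 false calls. With a log2 of 0.6 instead, 92% were called with 10 false calls, and smaller changes were not simulated. Alternatives were quantile normalization, neqc, a floor of 64, detected probes only, only the groups concerned, eBayes trend and robust settings, the replicate block, and leaving out arrays. Probe names came from the Illumina annotation, and 0 probe IDs were in the gene tables used here, so the planned count of other pathway genes was not made. The genes named were the 3 members, given by probe ID, and, by a separate ranking, the 2 probes with the highest mean r to them over the 24 arrays. The members, lists and tests were chosen with earlier results of these data known. The order of levels and the comparison of IFIH1 with DDX58 were added after seeing the data. The number of arrays limits the precision. Figures used matplotlib 3.10.9 in Python 3.11.15. One motif search is not reported here.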

Additional observations from a re-analysis of the deposited data

Results flagged for a closer look

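Responses that differed between siRNA backgrounds by an interaction term of limma (Benjamini-Hochberg adjustment over all probes) were the larger induction after siSUZ12 of DDX58, by a log2 of 0.73 (adjusted p = 0.00544), and of IFIH1, by 0.89 (adjusted p = 4.27e-05), and the siSUZ12 difference of IFIH1 with IFNγ, which changed by -0.60 in the presence of siBRM (adjusted p = 0.00531). None of these terms passed 0.05 with neqc, where they were 0.72 (adjusted p = 0.532), 0.33 (adjusted p = 0.910) and -0.72 (adjusted p = 0.0587).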

How the results depend on the processing

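Of 54 group differences and interaction terms, 38 kept their direction and their call under every alternative. These include values that were called in no fit, so 38 is not a number of called differences. A floor of 64 and a fit with the replicate number as a block changed no call. Same-numbered arrays deviated together in part: r had a median of 0.102 over 84 pairs (-0.0982 to 0.362). For 17 of 24 arrays the highest r was with the same number, a hint from the data and not the design. The number of such matches by chance was not computed. The median of -0.0462 over 168 pairs with different numbers adds no evidence, since deviations from a group mean offset each other within the group. Since not every pair was over 0.1 and no label ties the numbers to a shared source, they were not taken as pairs. The log2 values that changed call or direction follow, and the cause was not tested.

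With neqc, calls were lost for the larger induction after siSUZ12 of DDX58 (0.72) and IFIH1 (0.33), for DDX58 after siSUZ12 in untreated cells without (0.51) and with siBRM (0.47), and for the change of the IFIH1 siSUZ12 difference by siBRM with IFNγ (-0.72). Calls were gained for the same change of DHX58 (-0.80) and for DHX58 with siBRM in siCtrl cells with IFNγ (0.55). Uncalled values that reversed were the change by siBRM of the untreated DDX58 siSUZ12 difference (-0.036), the siBRM change of IFIH1 induction in siCtrl cells (-0.10) and the DHX58 siSUZ12 difference with IFNγ in siBRM cells (-0.055, and -0.023 by quantile normalization).

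Quantile normalization lost both untreated DDX58 calls after siSUZ12, at 0.24 each. Fitting only the groups concerned lost this call in cells without siBRM (0.30, adjusted p = 0.0639 in limma) and that of IFIH1 with siBRM in untreated siCtrl cells (0.30, adjusted p = 0.0895). The siBRM change of DDX58 induction in siCtrl cells (0.73) was called with eBayes trend and robust settings and among detected probes, but under no other alternative. DHX58 with siBRM in siCtrl cells with IFNγ (0.22) was called among detected probes too. It passed that filter only through IFNγ arrays with siSUZ12 or siBRM, so this call is no separate support.

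Leaving out 1 array or 1 replicate number left 1410 of 1458 values with the same direction and call. This count does not measure robustness. An array of a group outside a contrast cannot move its log2 value, and values that stayed uncalled count as the same. The ranges that crossed were, for DDX58, 0.16 to 0.43 and, in siBRM cells, 0.22 to 0.39 after siSUZ12 without IFNγ, 0.62 to 0.86 for the siSUZ12 change of induction, and -0.10 to 0.18 for the siBRM change of the untreated siSUZ12 difference. For IFIH1 they were 0.14 to 0.41 with siBRM in untreated siCtrl cells, -0.15 to 0.0072 with siBRM in siSUZ12 cells with IFNγ, and -0.70 to -0.51 for the siBRM change of the siSUZ12 difference with IFNγ. For DHX58 they were 0.29 to 0.40 and, in siBRM cells, -0.025 to 0.052 after siSUZ12 with IFNγ, -0.051 to 0.20 with siBRM in untreated siSUZ12 cells, and -0.13 to 0.087 for the siBRM change of the untreated siSUZ12 difference. The number of arrays and the background signal limit small differences, most of all for DHX58.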
